A study of Mus musculus with 11 samples.

Results

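The genes examined here were the 4 platelet-derived growth factor (PDGF) ligands, Pdgfa, Pdgfb, Pdgfc and Pdgfd, and their 2 receptors, Pdgfra and Pdgfrb. They were chosen by gene symbol and not by their measured values, although earlier results of these data were known. They make up 6 of the 32287 genes counted. The data were single-cell RNA sequencing of brain vessels from 11 untreated mice, with 1 library per mouse. Microvascular fragments were pulled from digested brain with magnetic beads against CD31, an endothelial surface protein, and were then dissociated into single cells. All mice carried a human NOTCH3 transgene beside their own Notch3. In 6 mice the transgene bore the R182C change (R182C-TgN3, hereafter CADASIL mice, after the inherited small vessel disease that NOTCH3 variants cause), 3 of them 6 months old and 3 of them 9 months old. In the other 5 mice it was wild-type (WT-TgN3, hereafter control mice), with 3 mice at 6 months and 2 at 9 months. Each genotype was a single transgenic line, named Tg350 and Tg100 in the labels, so that the R182C change and the line cannot be told apart. Female and male mice were present at both ages in both genotypes. The 4 batches each held mice of 1 age only, so age and batch cannot be told apart, and 1 batch held a single CADASIL mouse. The beads select fragments that hold endothelium, so the numbers of mural cells, fibroblasts and microglia do not give their frequency in the brain.

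PDGFs are secreted dimers that bind receptor tyrosine kinases. PDGF-A binds the receptor encoded by Pdgfra, PDGF-B binds both receptors, PDGF-C acts mainly through the Pdgfra product, and PDGF-D binds the Pdgfrb product. In the brain, PDGF-B from endothelial cells (ECs) is known for recruiting and holding pericytes, the mural cells of capillaries, which carry the receptor encoded by Pdgfrb. PDGF-A and PDGF-B are processed inside the cell, whereas PDGF-C and PDGF-D are secreted with a CUB domain that has to be cut off outside the cell before they can bind. NOTCH3, the gene altered in the CADASIL mice, is a receptor of smooth muscle cells (SMCs) and pericytes.

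The libraries held 17550806 to 64215050 unique molecular identifiers (UMIs, each standing for 1 captured transcript) and 66658 cell barcodes in all. After filtering, 58346 cells remained, 2898 to 9056 per mouse, with a median of 3481 to 7627 UMIs per cell and mouse. The libraries shared 966 barcodes, up to 350 between a pair of 6-month libraries (10.2% of the smaller library). Leaving out the 1663 cells with such a barcode changed no call for a PDGF gene. Cells were clustered without the 6 genes and the clusters were named by their markers, the name standing for a likeness to that cell type. This gave 3969 arterial ECs, 20222 capillary ECs, 2578 venous ECs, 1594 fenestrated ECs, 2132 SMCs, 473 pericytes, 86 fibroblasts and 13986 microglia, beside 6800 ECs without a clear segment and 4450 unnamed cells. Only 3 mice had the 10 fibroblasts required per mouse. The human NOTCH3 transcript was at 254.6 ± 66.3 CPM (SD, n = 6; CPM is the counts-per-million scale, a gene's UMIs relative to all UMIs of that mouse and cell type) in SMCs of the CADASIL mice and at 42.4 ± 24.4 CPM (n = 5) in those of the control mice, with no overlap, and mouse Notch3 was at 617.6 ± 84.7 and 659.1 ± 44.1 CPM. The defining SMC markers summed to at least 27315 CPM in SMCs and the pericyte markers to at least 19018 CPM in pericytes of every mouse.

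The CUB-domain ligands had different leading cell types in these data, SMCs for Pdgfc and arterial ECs for Pdgfd, and both genes are longer than those of the other ligands, at 178 kb (Pdgfc, ENSMUSG00000028019, chr3:81036416-81214040, plus strand) and 210.3 kb (Pdgfd, ENSMUSG00000032006, chr9:6168584-6378850, plus strand). RefSeq promoters (GRCm38.p6) were at hand for 4 of the 6 genes, and were searched on both strands, over the 250 bases before the start, for the TATA box (TATAAA), the ETS core (CCGGAA), the GC box (GGGCGG) and the CArG box, the element bound by serum response factor at many smooth muscle genes. These motifs stood in 12.4%, 12.0%, 32.7% and 1.47% of 32851 promoters. Among the PDGF genes the CArG box was found in the Pdgfc promoter (chr3:81036166-81036415, 50.8% G and C), the TATA box in the Pdgfd promoter (chr9:6168236-6168485, 53.6% G and C) and the GC box in both Pdgfa promoters (66.4% and 72.4% G and C). The ETS core was in none of them, and the Pdgfra promoter held none of the 4 motifs. The Pdgfc and Pdgfd promoters are shown 5′ to 3′ with the motif in capitals, since these ligands share a domain layout and differ in their leading cell type. A match describes the letters only. An antisense gene also lies opposite Pdgfc and Pdgfra and Ddi1 opposite Pdgfd, and the 3' kit keeps the strand of the transcript.
Pdgfc: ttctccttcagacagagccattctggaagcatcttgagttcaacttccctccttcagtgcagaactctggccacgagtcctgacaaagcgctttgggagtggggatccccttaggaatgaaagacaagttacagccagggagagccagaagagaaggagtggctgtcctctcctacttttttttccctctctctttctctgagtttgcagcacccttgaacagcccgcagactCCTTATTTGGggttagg
Pdgfd: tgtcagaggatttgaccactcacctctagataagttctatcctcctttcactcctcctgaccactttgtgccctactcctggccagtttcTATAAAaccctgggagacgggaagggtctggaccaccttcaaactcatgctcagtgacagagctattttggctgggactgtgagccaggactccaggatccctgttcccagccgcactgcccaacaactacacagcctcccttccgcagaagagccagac

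Pdgfa, the ligand of the Pdgfra product, was highest in SMCs and was graded along the endothelium. The gene (ENSMUSG00000025856) lies at chr5:138976014-138997370 on the minus strand of mm10 (GENCODE vM21), with an annotated antisense gene across its start. Its level, in CPM of the UMIs summed per mouse and cell type, was 213.5, 259.3 and 308.0 CPM (lowest, median and highest of 11 mice) in SMCs and 119.0, 148.9 and 186.7 CPM in arterial ECs. Every mouse had more in SMCs than in arterial ECs, by a ratio of 1.75 ± 0.31 (SD, n = 11). Arterial ECs in turn exceeded capillary ECs in all 11 mice, by a ratio of 5.93 ± 1.12. Venous ECs stood between them at 53.4 ± 19.8 CPM, above the capillary 26.2 ± 5.3 CPM in 11 of 11 mice, while capillary ECs did not differ beyond their spread from fenestrated ECs (24.5 ± 6.8 CPM, higher in capillary ECs in 6 of 11 mice) or from microglia (29.8 ± 4.5 CPM). Pericytes had 57.9 ± 19.8 CPM, which rests on 93 UMIs and overlapped the venous level. Fibroblasts had 7.36 ± 3.50 CPM (n = 3). Levels by cell type are given without a test, since the types came from clustering the same cells.

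Pdgfb, the endothelial ligand for mural cells, was high in all EC classes, in microglia and in cells named erythroid and low in mural cells. The gene (ENSMUSG00000000489) lies at chr15:79995874-80014977 on the minus strand and overlaps an antisense gene. It was at 327.5, 436.6 and 585.9 CPM (lowest, median and highest) in fenestrated ECs, 304.4, 390.7 and 513.0 CPM in arterial ECs, 272.0, 343.3 and 459.7 CPM in capillary ECs and 168.3, 190.9 and 275.7 CPM in venous ECs. Venous ECs were the lowest class, under the arterial level in 11 of 11 mice (ratio arterial to venous 1.92 ± 0.28) and under the capillary level in 11 of 11 (ratio 1.70 ± 0.26). The steps from fenestrated to arterial and from arterial to capillary ECs were 46.0 ± 25.7 and 45.5 ± 34.0 CPM, each in 10 of 11 mice, within overlapping ranges. Microglia, resident immune cells of the brain that came with the fragments, had 322.8 ± 50.8 CPM, below capillary ECs in 10 of 11 mice, and held 20.6% of all 109557 Pdgfb UMIs. Perivascular macrophages had 103.6 ± 36.9 CPM. Erythroid cells (664 cells led by haemoglobin genes, median 9800.5 UMIs) had 292.8 ± 64.6 CPM, above venous ECs in 9 of 11 mice, and a Pdgfb UMI in 82.5% of cells (41.6% once thinned to 2000 UMIs). In these cells the 8 EC markers summed to 12140 to 16168 CPM, against 10291 to 12864 CPM in venous and 13748 to 18271 CPM in arterial ECs. The 5 erythroid markers summed to 86562 to 281788 CPM, so the cells held EC and erythroid transcripts together. The part of EC transcripts in their Pdgfb and Pdgfd levels was not tested. SMCs had 22.1 ± 4.7 CPM and pericytes 20.2 ± 10.8 CPM, which did not differ beyond their spread. In those SMCs the 8 EC markers summed to 58.5 to 332.5 CPM and in those pericytes to 199.9 to 830.8 CPM, against at least 16867 CPM in capillary ECs. The 7 microglia markers summed to 161.1 to 540.6 CPM in the SMCs and 348.0 to 2159 CPM in the pericytes. The part of EC and microglia transcripts in the mural Pdgfb level was not tested.

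Pdgfc was found mainly in smooth muscle. SMCs had 77.8, 97.7 and 129.3 CPM (lowest, median and highest of 11 mice) and held 69.2% of the 2667 Pdgfc UMIs, although they were 3.65% of the cells. Arterial, capillary and fenestrated ECs were under 1 CPM, and venous ECs had 5.11 ± 3.57 CPM. Perivascular macrophages had 26.6 ± 27.6 CPM, choroid plexus epithelium 29.3 ± 6.3 CPM (n = 3 mice) and fibroblasts 14.5 ± 9.8 CPM (n = 3 mice; 4.03 CPM in cells gated by markers). These are small counts of 45, 79 and 11 UMIs, and they did not differ from each other beyond their spread. Pericytes had no Pdgfc UMI in 473 cells, which allows up to 0.634% of cells with a UMI and 1.92 CPM, for counting error only.

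Pdgfd, the ligand of the Pdgfrb product, was highest in arterial ECs. Arterial ECs had 405.3, 782.2 and 1020 CPM (lowest, median and highest), capillary ECs 315.6, 413.9 and 515.1 CPM, venous ECs 302.5, 439.5 and 559.5 CPM and fenestrated ECs 357.4, 453.6 and 641.8 CPM. Arterial ECs exceeded capillary ECs in 11 of 11 mice, by a ratio of 1.83 ± 0.24, while fenestrated against venous ECs (higher in 7 of 11 mice) and venous against capillary ECs (8 of 11) did not differ beyond their spread. Of the 134461 Pdgfd UMIs, 32.2% lay in ECs without a clear segment, 30.4% in capillary, 14.96% in arterial, 9.18% in venous and 3.44% in fenestrated ECs. SMCs had 103.7, 214.1 and 311.7 CPM, where EC markers reached at most 332.5 CPM against at least 13748 CPM in arterial ECs. Fibroblasts had 193.9, 223.0 and 289.3 CPM in the 3 mice. The cells named erythroid, which also held EC markers at the level of ECs, had 471.5 ± 201.9 CPM. This was below arterial ECs in 10 of 11 mice and not beyond their spread from fenestrated ECs. A Pdgfd UMI was in 81.2% of these cells (46.2% once thinned). Pericytes had 7.50 ± 11.2 CPM from 10 UMIs (24.1 CPM in cells gated by markers), and microglia had 2.23 ± 1.29 CPM. Some ligand levels were higher in unnamed cells that scored highest for pericyte markers. Of these, 63 cells had 352.2 CPM of Pdgfd, 24.1 CPM of Pdgfc and 237.8 CPM of Pdgfa, and another 85 cells had 177.2 CPM of Pdgfa and no UMI of Pdgfc or Pdgfd.

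Both receptors were near 0 in endothelium. Pdgfra (ENSMUSG00000029231, chr5:75152292-75198215, plus strand), known in the brain for fibroblasts and oligodendrocyte precursor cells (OPCs), was at 440.4, 455.3 and 561.5 CPM in the fibroblasts of the 3 mice with at least 10 of these cells. The 86 fibroblasts held 48.6% of its 1128 UMIs, while 24.7% lay in unnamed clusters, 13.7% of all in 24 cells that scored highest for fibroblast markers but were led by endothelial genes such as Plvap and Kdr. In the fibroblasts 4 of the 7 OPC markers were at 0 and the list summed to 33.4 to 72.5 CPM. Pericytes had no Pdgfra UMI in 473 cells (again up to 0.634% of cells with a UMI, for counting error only), and SMCs had 4 UMIs in 2132 cells. The means of arterial, capillary, venous and fenestrated ECs were each under 2 CPM, and the highest single mouse was at 3.31 CPM, in arterial ECs.

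Pdgfrb (ENSMUSG00000024620, chr18:61045150-61085061, plus strand), the receptor widely used as a mural cell marker, was highest in pericytes. It was not among the markers used here to name them. Pericytes had 1578, 2040 and 2219 CPM (lowest, median and highest of 11 mice), and SMCs had 216.3, 289.8 and 349.9 CPM. The ratio of pericytes to SMCs within a mouse was 6.77 ± 0.63 (5.61 to 7.56), and the ranges did not come near each other. Fibroblasts had 272.3, 280.8 and 362.4 CPM in the 3 mice, which overlapped the SMC range. SMCs held 43.2% of the 11820 Pdgfrb UMIs and pericytes 26.2%, from 2132 and 473 cells. Unnamed clusters held 21.1%, among them 85 cells at 1772 CPM and 63 cells at 1017 CPM that scored highest for pericyte markers, and 256 cells at 325.8 CPM that scored for ECs and SMCs together. Arterial, capillary, venous and fenestrated ECs had 2.04 ± 1.84, 0.92 ± 0.73, 5.10 ± 4.37 and 1.13 ± 1.24 CPM. The venous level was 1.35 CPM and the fenestrated level 10.97 CPM when at least 1000 genes were required per barcode.

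**Figure D1:**
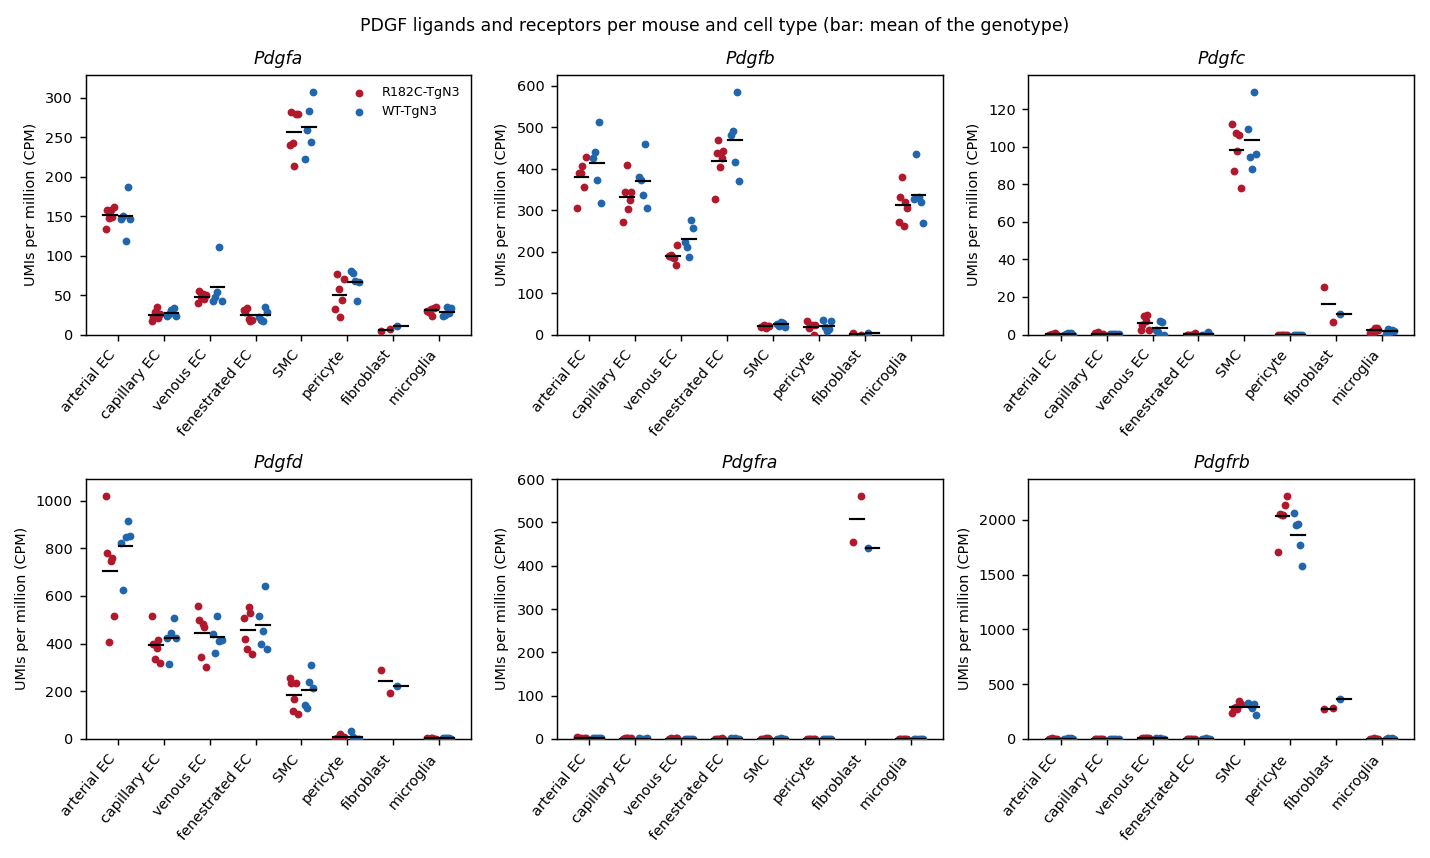
The counts-per-million level (CPM, linear axes from 0) of each PDGF gene in 8 cell types, 1 point per mouse with at least 10 cells of the type, CADASIL mice (R182C-TgN3) in red and control mice (WT-TgN3) in blue, with a bar at the mean of each genotype. Points of both genotypes overlap wherever both have several mice, and Pdgfrb in pericytes (1578 to 2219 CPM) stands above every other cell type.

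**Figure D2:**
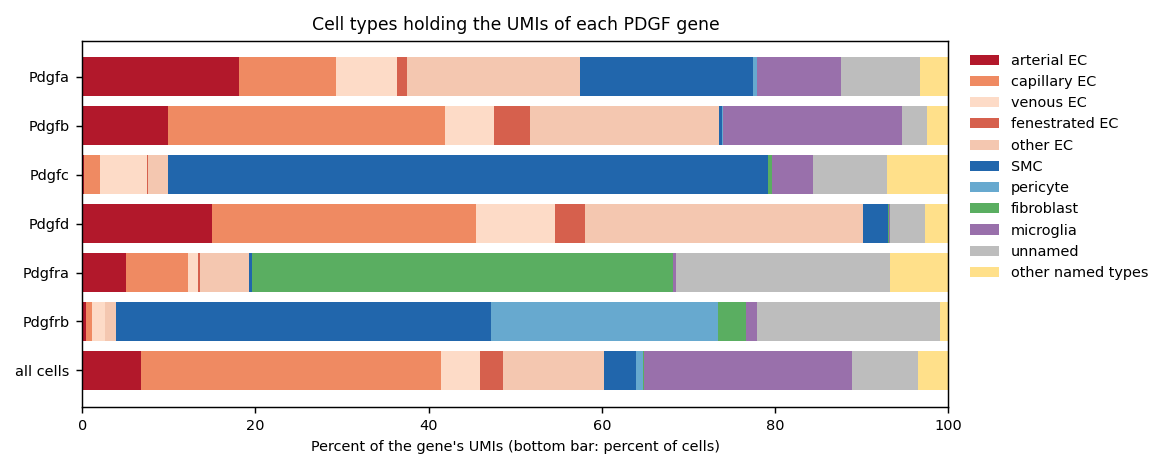
Percent of each gene's UMIs held by each cell type (one stacked bar per gene, 0 to 100%), with the percent of all cells in the bottom bar. SMCs, 3.65% of the cells, hold 69.2% of the Pdgfc UMIs and 43.2% of the Pdgfrb UMIs, and EC classes hold most of the Pdgfd UMIs.

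The share of cells with at least 1 UMI was compared after each cell was thinned to 2000 UMIs. Pdgfrb was seen in 96.1% of pericytes, 40.1% of SMCs and 51.8% of fibroblasts, against 0.203% of capillary ECs. Without thinning these shares were 98.1%, 82.4%, 90.7% and 0.386%, at median depths of 3060, 7946.5 and 11574 UMIs in the first 3 types and 4290 in capillary ECs. Pdgfd was seen in 66.4% of arterial and 46.8% of capillary ECs and in 0.411% of microglia, and Pdgfb in 51.5% of arterial ECs, 47.4% of capillary ECs, 56.0% of fenestrated ECs and 39.7% of microglia. The share for venous ECs was 33.6% for Pdgfb and 46.9% for Pdgfd. Pdgfa was seen in 36.9% of SMCs and 22.5% of arterial ECs, Pdgfc in 15.7% of SMCs and Pdgfra in 63.9% of fibroblasts. Thinning left out 32 SMCs, 89 pericytes, 123 arterial ECs, 985 capillary ECs, 527 of the 2578 venous ECs and 2055 of the 13986 microglia, which held fewer UMIs. Pdgfb and Pdgfd were seen together in 34.4% of arterial ECs, where the product of the separate shares was 34.2%, and in 22.4% of capillary ECs, where it was 22.2%. In SMCs Pdgfd and Pdgfrb were seen together in 9.43% of cells, with a product of 9.97%.

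The genes also varied inside a cell type. These subclusters came from the same cells and the values are a description. Among SMCs, subcluster 8 (187 cells, led by Pappa2 and S100a4) had 473.6 ± 46.5 CPM of Pdgfa against 230.2 ± 34.1 CPM in the other SMCs of the same mice, 293.3 ± 110.6 against 82.4 ± 15.9 CPM of Pdgfc and 508.6 ± 98.3 against 261.2 ± 37.1 CPM of Pdgfrb, each higher in 7 of the 7 mice with at least 10 such cells. Subcluster 3 (263 cells, led by Pex5l and Ackr3, and with Rgs5, a mural gene, among its leading genes) was higher in Pdgfrb in 11 of 11 mice, at 467.3 ± 102.3 against 265.3 ± 35.2 CPM. That subcluster was lower in both CUB-domain ligands in 11 of 11 mice, with 29.6 ± 17.1 against 111.3 ± 17.5 CPM of Pdgfc and 98.7 ± 55.9 against 212.3 ± 76.2 CPM of Pdgfd. Subclusters 4 and 6, both with the contractile gene Cnn1 among their leading genes, had less Pdgfrb and less Pdgfa than the other SMCs. Pdgfrb was 192.4 ± 40.4 CPM in subcluster 4 (9 mice) and 198.6 ± 32.0 CPM in subcluster 6 (10 mice), and Pdgfa 177.3 ± 19.7 and 167.4 ± 47.2 CPM, below the other SMCs of the same mouse in each case. Low Pdgfrb was not particular to them. With cells pooled it was 191.8 and 218.9 CPM in subclusters 4 and 6, and 207.2, 223.9 and 224.3 CPM in subclusters 5, 2 and 7. The other subclusters of at least 50 cells, among them 3 and 8, ran from 240.1 to 504.1 CPM.

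**Figure D3:**
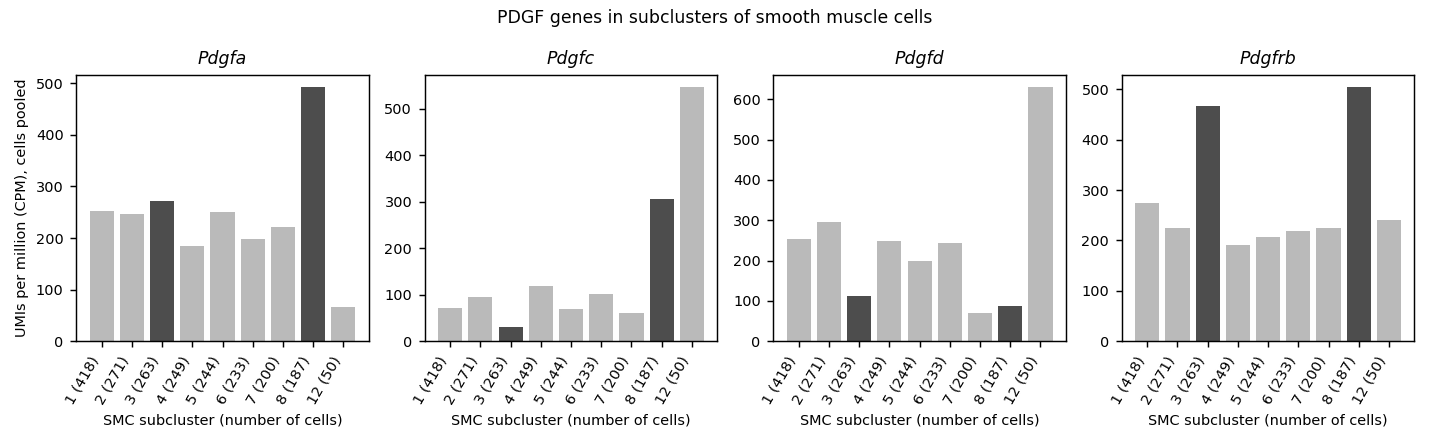
The pooled counts-per-million level (CPM, bars from 0) of Pdgfa, Pdgfc, Pdgfd and Pdgfrb in each SMC subcluster of at least 50 cells, the number of cells in brackets and subclusters 3 and 8 in dark grey. Subcluster 8 is high in Pdgfa, Pdgfc and Pdgfrb, subcluster 3 in Pdgfrb only, and subcluster 12 (50 cells, median 2507 UMIs per cell) in Pdgfc and Pdgfd.

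Arterial ECs divided likewise. Subcluster 11 (1090 cells, led by Pi16, S100a4 and Fabp4) had more Pdgfa (186.1 ± 25.7 against 125.9 ± 21.1 CPM) and more Pdgfd (830.6 ± 191.5 against 703.0 ± 165.0 CPM) than the other arterial ECs in 11 of 11 mice. With the cells of all mice pooled, Pdgfa was highest in subcluster 17 (218 cells), at 247.7 CPM from 228 UMIs, against 185.9 CPM in subcluster 11. Subcluster 16 (333 cells, led by Cytl1, Bgn and Fbln5, with the elastin gene Eln) had less Pdgfb, at 230.7 ± 49.1 against 422.5 ± 64.7 CPM, and less Pdgfa, at 91.6 ± 27.8 against 157.7 ± 20.2 CPM, in 10 of 10 mice. In capillary ECs Pdgfd ran from 260.3 ± 46.0 CPM in subcluster 7, below the other capillary ECs in 11 of 11 mice, to 546.9 ± 99.5 CPM in subcluster 3, above them in 11 of 11. In venous ECs subcluster 15 (486 cells, led by Lcn2 and Ackr1, with a median of only 878 UMIs per cell) had 89.4 ± 45.7 against 202.3 ± 17.4 CPM of Pdgfb and 95.9 ± 70.7 against 3.29 ± 1.96 CPM of Pdgfc, with Pdgfb lower and Pdgfc higher inside it in 6 of 6 mice. All 486 cells together held only 50 UMIs of Pdgfb and 26 UMIs of Pdgfc, or 105.8 and 55.0 CPM when pooled.

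Genes whose mean level over 13 cell types followed that of a PDGF gene most closely (Pearson's r of log2(CPM + 1), among 11358 genes with at least 20 CPM in 1 type) were named by rank. These correlations are over types that share libraries and depth, and carry no p. For Pdgfrb they were Bmp5 (r = 0.98), Pcdh18 (0.98) and Pth1r (0.98), all highest in pericytes. For Pdgfra they were Arfgef3 (0.96), Gm41414 (0.95) and Slitrk2 (0.95), all highest in fibroblasts. Pdgfb was followed by Tal1 (0.95), Adipor1 (0.94) and Arap3 (0.94), and Pdgfd by Ccn1 (0.97), Zfp423 (0.97) and Id1 (0.97), each of the last 3 with a different highest type. For Pdgfa and Pdgfc the highest r was lower, with Prkaca (0.88), Actr1b (0.88) and Dst (0.87) for Pdgfa and Vegfb (0.85), Macrod1 (0.84) and Flrt1 (0.83) for Pdgfc.

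Partners of the pathway came from a list of 35 genes in 4 roles, and the levels given next were picked after the values were seen (mean ± SD over 11 mice, or 3 for fibroblasts). Of the proteases that process ligands, Pcsk5 was at 117.3 ± 35.3 CPM in arterial ECs against 0.72 ± 0.57 CPM in capillary ECs, and Plat, which encodes the protease that activates PDGF-C, was at 252.6 ± 37.3 CPM in arterial ECs, 305.7 ± 40.3 CPM in capillary ECs, 275.2 ± 56.6 CPM in venous ECs, 307.4 ± 75.8 CPM in pericytes, 488.6 ± 135.9 CPM in fibroblasts and 87.8 ± 20.7 CPM in SMCs. Lrp1, a co-receptor that binds the Pdgfrb product, was at 294.0 ± 59.9 CPM in pericytes, 98.1 ± 16.2 CPM in SMCs and 540.4 ± 4.8 CPM in fibroblasts, and at 2.65 to 3.63 CPM in arterial, capillary and venous ECs. Thbs1, which encodes a matrix protein that binds PDGF, was at 121.3 ± 32.6 CPM in SMCs and 0.24 ± 0.80 CPM in pericytes. The adaptor genes Gab1 and Nck2 were at 615.8 ± 150.4 and 158.2 ± 49.2 CPM in pericytes, above 133.1 ± 31.3 and 36.1 ± 7.0 CPM in SMCs.

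Whether the CADASIL mice differed from the control mice was the question of the study, and for the PDGF genes no difference passed the threshold. UMIs were summed per mouse and cell type and fitted with edgeR's quasi-likelihood test over all genes, with Benjamini-Hochberg adjustment and a threshold of 0.05 on the adjusted p. Members were called in 0 of 3 cases in arterial ECs, 0 of 3 in capillary ECs, 0 of 5 in venous ECs, 0 of 5 in SMCs, 0 of 1 in pericytes and 0 of 3 in fibroblasts (2 mice against 1), where the share of all genes called was 0%, 0%, 0%, 0.0114%, 0.045% and 0.412%. In fenestrated ECs, added after the data were seen, it was 0 of 3 with 0% of all genes called. The remaining members had too few UMIs to pass the filter on low counts. Outside fibroblasts this was 20 tests with log2 fold changes (CADASIL minus control) from -0.32 to 1.009 and SEs from 0.11 to 0.63, of which 1 was under 0.05 before adjustment. The highest was in venous ECs, where Pdgfrb, from 168 UMIs, was at 6.47 ± 4.41 CPM in CADASIL and 3.46 ± 4.16 CPM in control mice. Pericyte markers in these venous ECs summed to medians of 39.6 and 13.1 CPM, and their part in this difference was not tested. DESeq2 called 0 members as well. Over all genes, those under 0.05 before adjustment were 181 of 9935 in arterial ECs and 211 of 11634 in capillary ECs. They were 259 of 10133 in venous ECs and 214 of 8574 in fenestrated ECs, with 0 called by either tool. The call in SMCs and in pericytes was the human NOTCH3 transcript itself.

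Pdgfb in venous ECs was the test under 0.05 before adjustment. The 6 CADASIL mice ran from 168.3 to 216.9 CPM with a median of 188.1 CPM, and the 5 control mice had 223.0, 211.1, 187.5, 275.7 and 257.4 CPM. The CADASIL mice were the lower group, and the groups overlapped. The log2 fold change was -0.25 (SE 0.12, 95% interval -0.49 to -0.001, unadjusted p = 0.0492), and edgeR's adjusted p was 0.9997. For the receptor of that ligand, pericytes of the CADASIL mice had 1702, 2049 and 2219 CPM of Pdgfrb (lowest, median and highest) and those of the control mice 2062, 1950, 1964, 1768 and 1578 CPM, again with overlap. The log2 fold change there was 0.13, with a 95% interval from -0.13 to 0.40. In SMCs the intervals were -0.26 to 0.29 for Pdgfrb, -0.25 to 0.24 for Pdgfa, -0.31 to 0.19 for Pdgfc and -0.57 to 0.31 for Pdgfd. Pdgfb in SMCs, which rests on 397 UMIs, was at -0.26 with an interval from -0.61 to 0.09. In capillary ECs Pdgfb had an interval from -0.39 to 0.16 and Pdgfd one from -0.31 to 0.18, and in arterial ECs Pdgfd one from -0.52 to 0.17.

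Fibroblasts were compared over 2 CADASIL mice and 1 control mouse, the lone control being taken to vary like the others. Pdgfra was 455.3 and 561.5 CPM against 440.4 CPM, with a log2 fold change of 0.21 (SE 0.50), and Pdgfrb 272.3 and 280.8 CPM against 362.4 CPM, with -0.38 (SE 0.48), both with an edgeR adjusted p of 0.9996. The fibroblast sum of the control mouse held 1232 CPM of SMC markers against 107.0 and 187.2 CPM in the CADASIL mice, and the part of these cells in the differences was not tested. With at least 5 fibroblasts per mouse, a choice made after the data were seen, 0 genes of any kind were called.

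**Figure D4:**
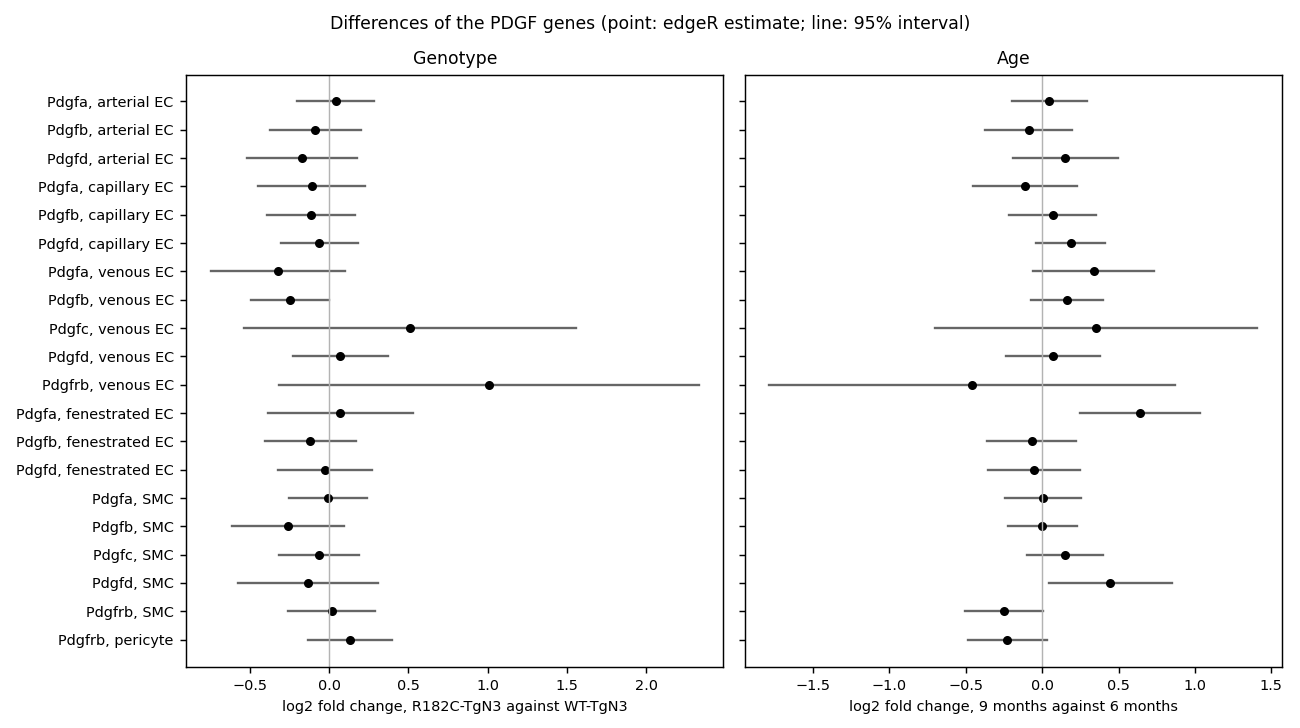
Log2 fold change (point) with its 95% interval (line) from edgeR for each PDGF gene that passed the low-count filter, by cell type, for genotype (left, R182C-TgN3 against WT-TgN3) and age (right, 9 against 6 months, genotype in the fit). By genotype the interval of Pdgfb in venous ECs ends at -0.001 and the others span 0, by age those of Pdgfa in fenestrated ECs and Pdgfd in SMCs lie above 0, and none passed the adjusted threshold.

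The age of the mice, 9 against 6 months with genotype in the fit, moved no PDGF gene past the threshold in any of 6 cell types (0 of 20 tests, 2 of them under 0.05 before adjustment). The share of all genes called was 0.201% in arterial ECs, 1.22% in capillary ECs, 0.0197% in venous ECs, 0.103% in SMCs, 0.405% in pericytes and 0.0467% in fenestrated ECs. DESeq2 called 0 members too. The count under 0.05 before adjustment was not set against the share of all genes under it, and holds no call. Of the 2 tests under 0.05 before adjustment, that of Pdgfa in fenestrated ECs separated the ages. The 6 mice at 6 months had 17.2, 18.5 and 22.7 CPM (lowest, median and highest) and the 5 mice at 9 months 31.7, 28.4, 33.1, 34.6 and 28.4 CPM. Every older mouse was above every younger mouse, in both genotypes. The log2 fold change was 0.64 (SE 0.19, 95% interval 0.25 to 1.04, unadjusted p = 0.00267), the edgeR adjusted p was 0.407, and the values rest on 85 and 176 UMIs. Over the other settings that kept all mice the log2 fold change was 0.42 to 0.67 and the adjusted p 0.288 to 0.880, and with cells gated by markers, in place of clusters, the mean level was 58.9 CPM. In capillary ECs, where Pdgfa was at a like level, it was 27.1 ± 4.8 CPM at 6 months and 25.1 ± 6.1 CPM at 9 months, and the ages overlapped.

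Pdgfd in SMCs was the other case. It was 103.7, 154.7 and 239.2 CPM at 6 months and 254.6, 235.5, 117.7, 311.7 and 214.1 CPM at 9 months, with overlap. Of the older mice 1 was among the lowest, and 2 others lay below the highest younger mice. The log2 fold change was 0.45 (SE 0.19, 95% interval 0.05 to 0.85) with an edgeR adjusted p of 0.566. Without the filter on low counts the adjusted p was 0.0286 in edgeR, and over the other alternatives that kept all mice it was up to 0.888. Pdgfrb was lower at 9 months in both mural types without passing the threshold. In SMCs it was 311.0 ± 29.1 CPM at 6 months (n = 6) and 267.6 ± 39.8 CPM at 9 months (n = 5), a log2 fold change of -0.25 (95% interval -0.50 to 0.01). In pericytes it was 2062 ± 102 and 1829 ± 211 CPM, a log2 fold change of -0.23 (95% interval -0.49 to 0.03).

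**Figure D5:**
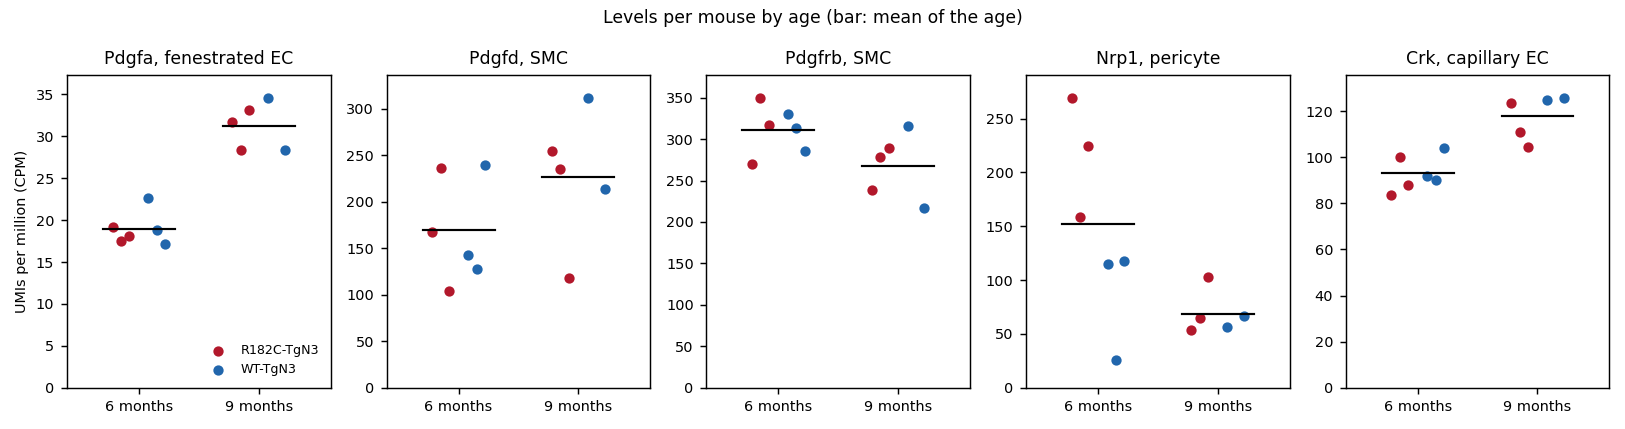
The counts-per-million level (CPM, linear axes from 0) per mouse at 6 and 9 months for Pdgfa in fenestrated ECs, Pdgfd and Pdgfrb in SMCs, Nrp1 in pericytes and Crk in capillary ECs, CADASIL mice in red, control mice in blue and a bar at the mean of each age. Pdgfa in fenestrated ECs separates by age (17.2 to 22.7 against 28.4 to 34.6 CPM), Crk only just (104.2 against 104.4 CPM at the closest), and the other 3 overlap.

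Of the 35 partner genes, 0 were called by genotype in any of the 7 cell types and 2 by age. In capillary ECs, where 1.22% of all genes were called by age, 32 of them were tested and 1 rose with age and 0 fell. That gene was Crk, an adaptor of receptor tyrosine kinases, at 92.9 ± 7.7 CPM at 6 months and 117.9 ± 9.7 CPM at 9 months (log2 fold change 0.34, SE 0.065, edgeR adjusted p = 0.0262). It stayed past the threshold in 5 of 11 fits that left out a mouse, and the adjusted p was 0.0798 without CADASIL mouse 1, 0.0945 without CADASIL mouse 4 and 0.0662, 0.0563, 0.0654 and 0.109 without control mice 1, 3, 4 and 5. The median log2 fold change of the 32 was 0.04, and that of all genes was -0.002. In pericytes, where 0.405% of all genes were called by age, 13 were tested and 1 fell. That was Nrp1, which encodes a co-receptor, with 26.0, 138.4 and 269.4 CPM (lowest, median and highest) at 6 months and 54.0, 64.9 and 103.2 CPM at 9 months (log2 fold change -1.34, SE 0.31, edgeR adjusted p = 0.0315), the ages overlapping. The values rest on 3 to 39 UMIs per mouse. At 6 months the CADASIL mice had 269.4, 158.7 and 225.0 CPM and the control mice 115.2, 26.0 and 118.0 CPM, and at 9 months the CADASIL mice had 54.0, 64.9 and 103.2 CPM and the control mice 56.1 and 66.4 CPM. The 3 highest values were those of the 6-month CADASIL mice. That call was lost with DESeq2 (adjusted p = 0.137), with cells gated by markers (log2 fold change -0.35, adjusted p = 0.932), without the shared barcodes (0.0512), and without CADASIL mouse 1 (0.165), 2 (0.138), 4 (0.228) or 6 (0.227) or control mouse 1 (0.0508) or 3 (0.0559). The median of the 13 was -0.03, and that of all genes 0.004. In the same pericytes Jun and Egr1, immediate early genes that respond to handling of tissue, were at 866.8 ± 591.7 and 509.6 ± 340.6 CPM at 9 months and at 209.0 ± 118.8 and 133.9 ± 75.2 CPM at 6 months, a pair picked after the values were seen. Their part in the Nrp1 difference was not tested. In arterial, venous and fenestrated ECs and in SMCs, 29, 30, 30 and 31 of the list were tested and 0 passed. Before adjustment 5, 1, 2 and 3 were under 0.05, counts not set against the share of all genes under it. Age and batch cannot be told apart for any of these values.

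The genotype difference itself was compared between the ages through the interaction term. Of 23 tests of PDGF genes 0 passed, with 0% of all genes called in 5 of the 6 cell types and 0.0213% in fenestrated ECs, and DESeq2 called 0 of them. The test under 0.05 before adjustment was Pdgfa in venous ECs (log2 difference -0.86, SE 0.33, unadjusted p = 0.0196), where 1 control mouse of 9 months had 111.4 CPM and the other 10 mice 40.0 to 55.4 CPM.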

How the data were processed

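Per the labels and the study's methods, single cells from CD31-selected brain microvessels were sequenced with a 10x Genomics 3' kit, and the authors deposited UMI counts per gene and barcode made with Cell Ranger 7.0.0 on mm10 with human NOTCH3 added. Whether intronic reads were counted is not given in the sources used here.

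Barcodes under 500 genes or over 10% mitochondrial UMIs were left out, and the highest-scoring of the rest were removed as doublets (0.8% per 1000 barcodes). Cells were clustered without the 6 PDGF genes (2000 variable genes, 30 components, 15 neighbours, Leiden resolution 1.0, leidenalg 0.10.2) and named from marker lists. Some naming rules were set after the clusters were seen. UMIs were summed per mouse and type with at least 10 cells. edgeR 4.0.16 (TMM, filterByExpr with a minimum count of 10, quasi-likelihood test, Benjamini-Hochberg, 0.05) was fitted over all genes except ribosomal, mitochondrial and unnamed predicted ones, in R 4.3.3, with DESeq2 1.42.0 as an alternative. An SE was the log2 fold change divided by the root of F. The edgeR genotype fit, but not the clustering, naming or other fits, was tried on simulated sums for SMCs and pericytes. It recovered 83.7% and 70.8% of the genes changed by a log2 fold of 1, and 100% of those changed by 2. It also called 11 unchanged genes in SMCs and 6 in pericytes. The spread between simulated mice was set in advance and not compared with that of these mice, so these shares do not give the power of the real fits. Mice are separate animals, and upper limits for counts cover counting error only. The intervals of the log2 fold changes came from the edgeR fits, in which each mouse was a replicate. Genes named beside the 6 members were the 3 most alike in level by rank and the listed partners past the threshold; others are marked as picked after their values were seen. The members and lists were chosen with earlier results of these data known.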

Additional observations from a re-analysis of the deposited data

Results flagged for a closer look

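Of 38 groups of mice tested for a sample far from the others, 2 held one, where chance alone gives about 1 in 20. Pdgfa in venous ECs was at 111.36 CPM in control mouse 4, and the other control mice lay between 42.56 and 54.06 CPM. Its value rests on 148 venous ECs. The arterial marker genes in these cells summed to 363 CPM, and to 243 to 438 CPM in the other control mice, and the part of arterial ECs in the high value was not tested. Pdgfrb in pericytes was at 1702.1 CPM in CADASIL mouse 1, and the other CADASIL mice lay between 2040.41 and 2218.69 CPM. Its value rests on 56 pericytes.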

How the results depend on the processing

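The calls for the PDGF genes were the same under each alternative run for genotype, age and their interaction, except that without the filter on low counts 1 member (Pdgfd by age in SMCs) was called where the reported count was 0. Counts over all genes moved more. By genotype, pericytes had 36 genes without the filter, 3 with batch in the fit and 3 with age in the fit (1 as reported), and fibroblasts had 1 with DESeq2 and 0 with at least 5 cells per mouse (22 as reported). By age, DESeq2 gave 44, 310, 22, 19, 5 and 9 genes in arterial, capillary and venous ECs, SMCs, pericytes and fenestrated ECs, no filter gave 263, 236, 120, 130, 39 and 89, and the reported counts were 20, 142, 2, 9, 9 and 4. With sex in the fit, or without shared barcodes, arterial ECs had 11, and with cells gated by markers arterial ECs had 53, pericytes 1 and fenestrated ECs 2. Leaving out 1 mouse gave 1 to 57, 10 to 264, 0 to 24, 5 to 26, 4 to 20 and 2 to 11 genes by age in the same order, and by genotype 0 to 1 in venous ECs, 1 to 4 in pericytes and 0 to 2 in fenestrated ECs.

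Mice with the same replicate number showed no shared deviation from their groups. Over 5 pairs and 5 cell types the correlation of same-numbered mice was -0.224 to 0.0426, with 0 over 0.1. Each pair shared a batch, and these correlations cannot show whether the mice were handled as pairs. With the number as a replicate block, pericytes had 2 genes by genotype and no other count moved. Small log2 fold changes turned direction, none of them called, and the cause was not tested. By age these were Pdgfb in SMCs (-0.0047 with DESeq2, -0.1045 gated), Pdgfa in arterial (-0.0632) and capillary ECs (0.0653) and Pdgfd in fenestrated ECs (0.039), the last 3 gated. By genotype they were Pdgfa in SMCs (0.0007 without the filter, 0.0003 with the block, 0.0723 with at least 1000 genes per barcode, 0.0979 with up to 20% mitochondrial UMIs, 0.0214 gated), Pdgfc in SMCs (0.0613 with 1000 genes), Pdgfa in fenestrated ECs (-0.0338 with batch, -0.0021 with age, -0.03 with the block, -0.0951 gated), Pdgfd in fenestrated ECs (0.0072 with batch, 0.0285 with the block) and, in fibroblasts, Pdgfd (-0.0358) and Pdgfrb (0.043) with at least 5 cells and Pdgfra (-0.002) with 20% mitochondrial UMIs.

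Leaving out 1 mouse, the log2 fold changes that turned direction ran, by age, from -0.0672 to 0.0637 for Pdgfa in SMCs, -0.0557 to 0.1047 in arterial and -0.0592 to 0.4441 in venous ECs; -0.1015 to 0.1214 for Pdgfb in SMCs, -0.2325 to 0.0061 in arterial, -0.0377 to 0.1608 in capillary and -0.195 to 0.0212 in fenestrated ECs; -0.0277 to 0.614 for Pdgfc in venous ECs; and -0.23 to 0.0309 for Pdgfd in fenestrated and -0.0342 to 0.1425 in venous ECs. By genotype they ran from -0.0616 to 0.0539 for Pdgfa in SMCs, -0.041 to 0.1233 in arterial, -0.0266 to 0.2337 in fenestrated and -0.4343 to 0.0348 in venous ECs, from -0.1155 to 0.027 for Pdgfc in SMCs, from -0.25 to 0.066 for Pdgfd in SMCs, -0.1425 to 0.0141 in capillary, -0.1047 to 0.0946 in fenestrated and -0.0096 to 0.1548 in venous ECs, and from -0.076 to 0.0842 for Pdgfrb in SMCs.

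Levels moved by more than 1 SD in 13 of 282 cases. Within 1 SD, Pdgfrb in venous ECs moved from 5.10 CPM to 1.35 CPM with at least 1000 genes, 1.85 CPM with scored doublets kept and 2.34 CPM gated, and Pdgfb in pericytes from 20.2 to 13.4 CPM with up to 20% mitochondrial UMIs. Shares of cells with a UMI moved in 53 of 84 cases, without thinning or with thinning to 1000 UMIs. Gated cells gave 32.1 CPM of Pdgfa in capillary and 58.9 CPM in fenestrated ECs, 24.1 CPM of Pdgfd and 0.89 CPM of Pdgfra in pericytes, and 0 CPM of Pdgfb, 4.03 CPM of Pdgfc and 173 CPM of Pdgfd in fibroblasts. With up to 20% mitochondrial UMIs, SMCs had 228 CPM of Pdgfa and 82.4 CPM of Pdgfc and fibroblasts 8.30 CPM of Pdgfb and 405 CPM of Pdgfra, and with at least 1000 genes SMCs had 80.6 CPM of Pdgfc and fenestrated ECs 10.97 CPM of Pdgfrb. The fenestrated EC fits, the shared-barcode setting, the limit of 5 fibroblasts and the alternatives for the interaction were chosen after seeing the data. The fibroblast model was not fitted by age, with covariates or the block, with at least 20 cells per mouse, with at least 1000 genes, with gated cells or with a mouse left out. In pericytes 1 PDGF gene passed the filter on low counts.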

Other observations

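The mice with the lowest Pdgfd were the same in several cell types. CADASIL mice 3 and 6 and control mouse 2 were the 3 lowest of 11 mice in arterial ECs (405.3, 515.6 and 626.2 CPM), capillary ECs (336.0, 320.2 and 315.6 CPM), venous ECs (344.0, 302.5 and 362.0 CPM) and SMCs (117.7, 103.7 and 127.9 CPM). In fenestrated ECs they ranked 3, 1 and 4 from the lowest. These mice are of both genotypes and both ages. The cell types of a mouse share 1 library, and the pattern was noticed in these values and has no test.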
